A study of Saccharomyces cerevisiae with 3 samples.

Results

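The 38 genes described here are stress-responsive genes of budding yeast, listed apart from the chaperone families. They were taken from a list of names and looked up among the 6256 genes on the arrays: 25 stood there under their gene name, 5 under their systematic name, and 8 were found through the current symbol of their systematic name (FMP16, MOH1, DCS1, DCS2, PIL1, LSP1, RTN2 and HSP31). The rule itself uses no measured value, but the list was drawn up with earlier results of these data known. By role they comprise 4 pentose phosphate side enzymes, 8 enzymes of aldehyde and methylglyoxal metabolism, 2 of glycerol synthesis, 3 of NAD salvage and the GABA shunt, 8 hydrophilic, secreted or small stress proteins, 10 membrane, mitochondrial, eisosome and vacuolar proteins, and 3 phosphatase and decapping regulators.

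In yeast a wide range of stresses, heat among them, induces a common set of genes, many of which are read by the transcription factors Msn2 and Msn4 when protein kinase A activity is low. The set reaches well beyond protein folding: it includes enzymes that regenerate NADPH, detoxify reactive aldehydes and make glycerol, along with small hydrophilic proteins and proteins of the wall, membranes and mitochondria. Many of its enzymes have a close relative encoded by another gene that serves growth under favourable conditions.

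The study asked how the linker histone Hho1p, which binds nucleosomes and the DNA between them, affects transcription before and after heat shock. There were 4 groups: wild type grown at 25 °C, wild type heated rapidly to 37 °C for 15 min, an HHO1 deletion strain grown at 25 °C, and the HHO1 deletion strain heated in the same way. All cells grew in YPAD, a rich medium, to an optical density of 0.5 before harvest or heating. The sources used here do not give the strain background, the mating type or the number of deletion clones. RNA of each of the 3 test groups was hybridised on 1 two-colour array with wild-type RNA from 25 °C, the only control, so no difference below has a replicate check and none was tested. Both deletion samples carried the dye Cy3 and shared 1 slide and 1 scan, while the heated wild type carried Cy5 on another slide, so for heated cells the strain cannot be told apart from slide, scan and dye. Each array reads a mean over a culture, in which more RNA per cell and more responding cells cannot be told apart.

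Between 90.0% and 90.2% of gene spots in Cy3 and between 94.3% and 95.1% in Cy5 were well above background, and no spot was saturated. HHO1 itself was low in the deletion strain, at a log2 ratio of -4.34 ± 0.16 (SD, 2 spots) at 25 °C and -3.91 ± 0.01 at 37 °C. Here a gene counts as risen or fallen, or as higher or lower, when the mean of its log2 ratios reached a size of 1 and every spot lay at least 0.58 in that direction. Of the 38 genes 21 had 2 spots and 17 had 1. An SD after a value is the spread between 2 spots of an array and says nothing about cultures, and a value without one comes from 1 spot. Net signals are brightness above background; Cy5 was brighter than Cy3 on every array, so net signals are compared within a dye, and only between samples for the same probe.

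Heat raised nearly the whole group in the wild type, though its members were chosen with earlier results of these data known. Of 38 genes 37 rose, none fell, and the median log2 ratio was 3.32, or 9.98-fold, where 11.6% of 5974 measured genes rose, 16.4% fell and the median of all genes was 0.00. The middle of the group ran from 2.05 at the lower quartile to 4.48 at the upper, against -0.56 and 0.48 over all genes. A log2 ratio of 2 or more was reached by 29 of the 38 genes and by 3.60% of all genes, and one of 4 or more by 16 genes and by 0.887%. The highest response was that of TMA10, at 6.69, and the lowest that of SIP18, at 0.30.

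The deletion strain showed the same rise. All 37 genes that could be measured rose, with a median of 3.02, or 8.11-fold, where 11.5% of 5918 genes rose and the median of all genes was -0.00. SIP18, the exception, could not be measured because its spot was not well above background in either channel of the 25 °C array. Relative to the wild-type reference the heated deletion strain again had 37 of 38 genes risen, with a median of 3.34, where 11.5% of 5946 genes rose. In each strain the responses ranged widely, from 1.21 for GRE2 to 6.14 for TMA10 in the deletion strain, with an SD over genes of 1.54 for the wild type and 1.47 for the deletion strain. The spread between spots of a gene was far smaller, with a root mean square SD of 0.05 and 0.07.

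**Figure D1:**
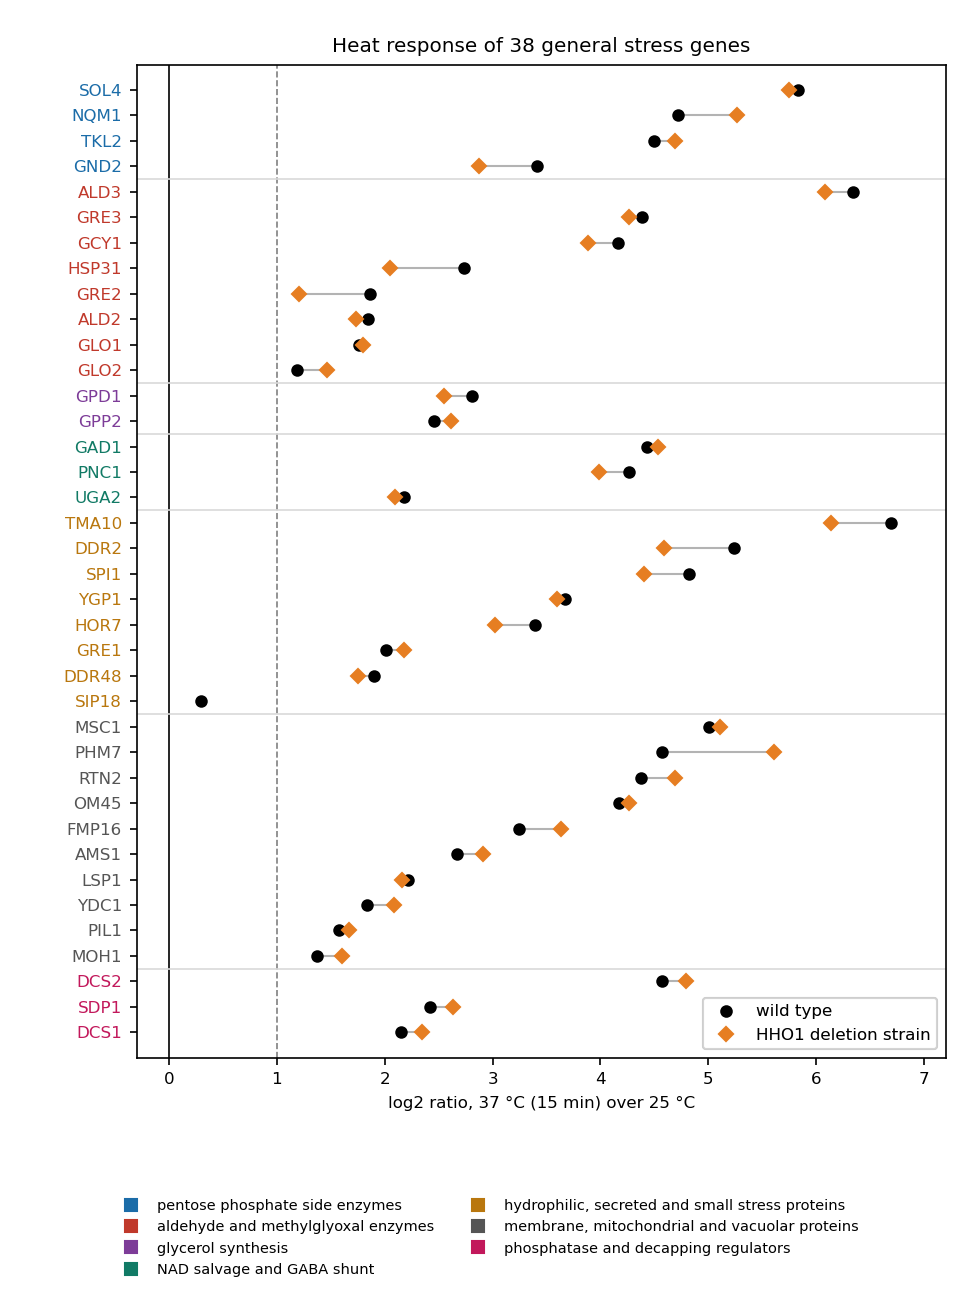
Log2 ratio of 37 °C over 25 °C (x axis) for each gene (y axis, coloured by role and ordered by the wild-type value within a role) in the wild type (circles) and the HHO1 deletion strain (diamonds), 1 array per group, with a dashed line at the size rule of 1. All genes but SIP18 lie to the right of the dashed line in both strains, and the 2 symbols of a gene lie close together compared with the span from 1.19 (GLO2) to 6.69 (TMA10).

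The pentose phosphate pathway makes NADPH, and its 4 stress-induced side enzymes rose 10.7-fold to 56.8-fold in the wild type. SOL4, a 6-phosphogluconolactonase, gave net signals of 347 and 516 in Cy5 in the wild type at 25 °C and 31750 after heat. At 25 °C SOL4 gave 145 in wild-type and 73.7 in deletion-strain RNA in Cy3, and heat brought the latter to 10723. The heated samples of both strains thus stood far above every sample from 25 °C, and the log2 responses were 5.83 in wild-type cells and 5.75 in the deletion strain. NQM1, a transaldolase-like protein, went from 310 and 256 to 9946 in Cy5, and from 70.9 in wild-type cells and 61.8 in the deletion strain to 4347 in the heated deletion strain in Cy3, with log2 responses of 4.72 and 5.26. TKL2, the minor transketolase, was dim at 25 °C, with 80.7 and 154 in Cy5 and 46.6 and 32.8 in Cy3, and reached 6941 and 2931 after heat. Its log2 responses were 4.49 ± 0.13 and 4.69 ± 0.18. GND2, the minor 6-phosphogluconate dehydrogenase, had the smallest response of the 4, at 3.42 and 2.88.

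The reference channel bears on the GND2 value. GND2 in wild-type RNA from 25 °C read 461 in Cy5 on the array of unheated deletion cells and 799 on that of heated ones. On the normalised log2 scale these 2 readings differed by 0.96, and when the deletion strain's own Cy3 channels were set against each other its response was 3.84 instead of 2.88. Whether GND2 responded less in the deletion strain therefore depends on which 25 °C reading is used.

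Of the 8 enzymes that act on aldehydes, ketones or methylglyoxal, all rose in both strains, with medians of 2.30 in wild-type cells and 1.93 in the deletion strain. ALD3, an aldehyde dehydrogenase of the cytosol, rose 81.3-fold in the wild type. It gave 693 and 675 in Cy5 in the wild type at 25 °C and 57074 after heat, and in Cy3 218 in wild-type cells and 200 in the deletion strain at 25 °C against 20351 in the heated deletion strain. ALD2, which lies next to ALD3 and encodes a closely similar enzyme, rose 3.59-fold, from 1959 and 1710 to 6512 in Cy5. The log2 responses were 6.35 and 6.08 for ALD3 and 1.85 ± 0.02 and 1.74 ± 0.02 for ALD2 in the wild type and the deletion strain. How far RNA of one of these near-identical genes binds the probe of the other was not tested.

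The aldose reductase gene GRE3 and the glycerol dehydrogenase gene GCY1 belong to the aldo-keto reductases and rose by similar amounts. GRE3 was at 4.39 ± 0.02 in wild-type cells and 4.26 ± 0.06 in the deletion strain, and GCY1 at 4.17 and 3.89. Methylglyoxal, a toxic by-product of glycolysis, is removed by the glyoxalases, and these responded less: GLO1 was at 1.76 ± 0.01 and 1.80 ± 0.02, GLO2 at 1.19 ± 0.05 and 1.47 ± 0.02. HSP31, whose product is a glutathione-independent methylglyoxalase of the DJ-1 family, was at 2.74 in wild-type cells and 2.05 in the deletion strain. GRE2, a methylglyoxal reductase, was at 1.87 ± 0.03 and 1.21 ± 0.01, the lowest response of any member in the deletion strain. In that strain GRE2 fell short of the size rule under median centring, at 0.87, and in the authors' deposited table, at 1.00.

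Glycerol is made in 2 steps, and the stress-induced enzyme of each rose. GPD1, glycerol-3-phosphate dehydrogenase, was at 2.81 ± 0.01 in wild-type cells and 2.55 ± 0.00 in the deletion strain. GPP2, glycerol-3-phosphatase, was at 2.46 ± 0.00 and 2.62 ± 0.02. Both were expressed before heat, GPD1 at 9225 and 8936 and GPP2 at 8943 and 5415 in Cy5, and after heat they stood at 52547 and 24104.

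PNC1, the nicotinamidase that feeds the NAD salvage pathway and lowers nicotinamide, an inhibitor of sirtuins, was among the members with a large response. It read 14406 and 12211 in Cy5 in the wild type at 25 °C and 139430 after heat, and in Cy3 3222 and 3617 in the wild type and the deletion strain at 25 °C and 48972 in the heated deletion strain. Its log2 responses were 4.27 and 3.99. The GABA shunt turns glutamate into succinate; its first enzyme GAD1, glutamate decarboxylase, was at 4.43 ± 0.01 and 4.54 ± 0.03, and its last enzyme UGA2, succinate semialdehyde dehydrogenase, at 2.18 ± 0.00 and 2.09 ± 0.04.

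The 8 hydrophilic, secreted and small stress proteins held both ends of the range. TMA10, a small ribosome-associated protein, rose 103-fold in wild-type cells and 70.3-fold in the deletion strain. Its Cy5 signal was 930 and 685 in the wild type at 25 °C and 72397 after heat, and its Cy3 signal 220 in the wild type, 256 in the deletion strain and 20629 in the heated deletion strain. DDR2, a small protein first found through DNA damage, rose 37.8-fold in the wild type, to 26007 in Cy5, and 24.1-fold in the deletion strain, to 8686 in Cy3. SPI1, a wall protein held by a GPI anchor, was at 4.82 ± 0.07 and 4.41 ± 0.01, and YGP1, a secreted glycoprotein, at 3.67 and 3.60. HOR7, a small protein related to that of DDR2, was at 3.39 and 3.02, the hydrophilin gene GRE1 at 2.02 and 2.18, and DDR48 at 1.90 ± 0.01 and 1.76 ± 0.03. All 3 were well above background in the wild type before heat, with Cy5 signals of 28556 and 24325 for DDR48, 10139 and 8849 for HOR7, and 176 and 152 for GRE1.

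SIP18, a phospholipid-binding hydrophilin and relative of GRE1, was the member that did not rise. Net signals of SIP18 were -2.8, 4.81 and 0.96 in the wild type at 25 °C, -4.96 in the deletion strain at 25 °C, 26.4 in the heated wild type and 16.7 in the heated deletion strain. In none of the channels from 25 °C was its spot well above background, and with the main processing the wild-type heat response is bounded at 1.08-fold or more. At this signal a response of SIP18 was not detectable by the size rule, which it passed with the signals as the scanner processed them, at 1.59, and in the authors' deposited table, at 1.01; with median centring it was at -0.73.

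All 10 membrane, mitochondrial, eisosome and vacuolar proteins rose in both strains, with medians of 2.96 in wild-type cells and 3.27 in the deletion strain. MSC1, named from a screen for meiotic recombination, led in the wild type with 5.004 ± 0.03 and was at 5.11 ± 0.05 in the deletion strain. Its Cy5 signal was 1262 and 1578 in the wild type at 25 °C and 40178 after heat, and its Cy3 signal 451 and 322 in the wild type and the deletion strain at 25 °C, and 19660 in the heated deletion strain. RTN2, a reticulon that shapes the endoplasmic reticulum, was at 4.37 and 4.69, and OM45, of the mitochondrial outer membrane, at 4.17 and 4.27. FMP16, found in the mitochondrial proteome, was at 3.25 ± 0.10 and 3.64 ± 0.11. The vacuolar alpha-mannosidase gene AMS1 was at 2.67 ± 0.04 and 2.91 ± 0.02, and the dihydroceramidase gene YDC1 at 1.84 and 2.09. PIL1 and LSP1 encode the closely similar core proteins of eisosomes, the furrows of the plasma membrane; PIL1 was at 1.58 ± 0.02 and 1.67 ± 0.03 and LSP1 at 2.21 ± 0.02 and 2.16 ± 0.04.

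PHM7, a membrane protein gene of unknown function, and MOH1 started near background. PHM7 gave net signals of 39.2, 97.5 and 80.7 in the wild type at 25 °C and 10.8 in the deletion strain at 25 °C, where it was not well above background, and 6583 and 2374 in the heated wild type and the heated deletion strain. Its fitted responses were 4.57 and 5.61, and with the main processing the latter is bounded at 33.7-fold or more. With median centring the deletion-strain response of PHM7 was 4.33, below that bound. MOH1 gave 2.36 in wild-type and 10.3 in deletion-strain RNA in Cy3 at 25 °C, neither well above background, and 40.3 and 32.4 in the wild type in Cy5. After heat it gave 290 in the wild type in Cy5 and 151 in the deletion strain in Cy3. With the main processing its bounds were 2.58-fold in the wild type, equal to the fitted value, and 2.64-fold in the deletion strain. Other settings fell below these bounds. Without background correction the wild-type response of MOH1 was 0.88, below the size rule, as was its response in the deletion strain under median centring, at 0.88.

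The 3 regulators also rose in both strains. DCS1, the scavenger enzyme that degrades cap remnants of decayed mRNA, was at 2.16 ± 0.06 and 2.35 ± 0.04, and DCS2, its stress-induced relative, at 4.57 ± 0.05 and 4.79 ± 0.09. SDP1, a phosphatase of the cell wall integrity kinase Slt2, was at 2.42 ± 0.12 and 2.63 ± 0.18. On the normalised single-channel scale both heated samples lay above all 4 readings from 25 °C for each of the 38 genes, which held for 35.4% of all 6256 genes. That count includes SIP18, which was well above background in both heated samples but in no channel from 25 °C.

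**Figure D2:**
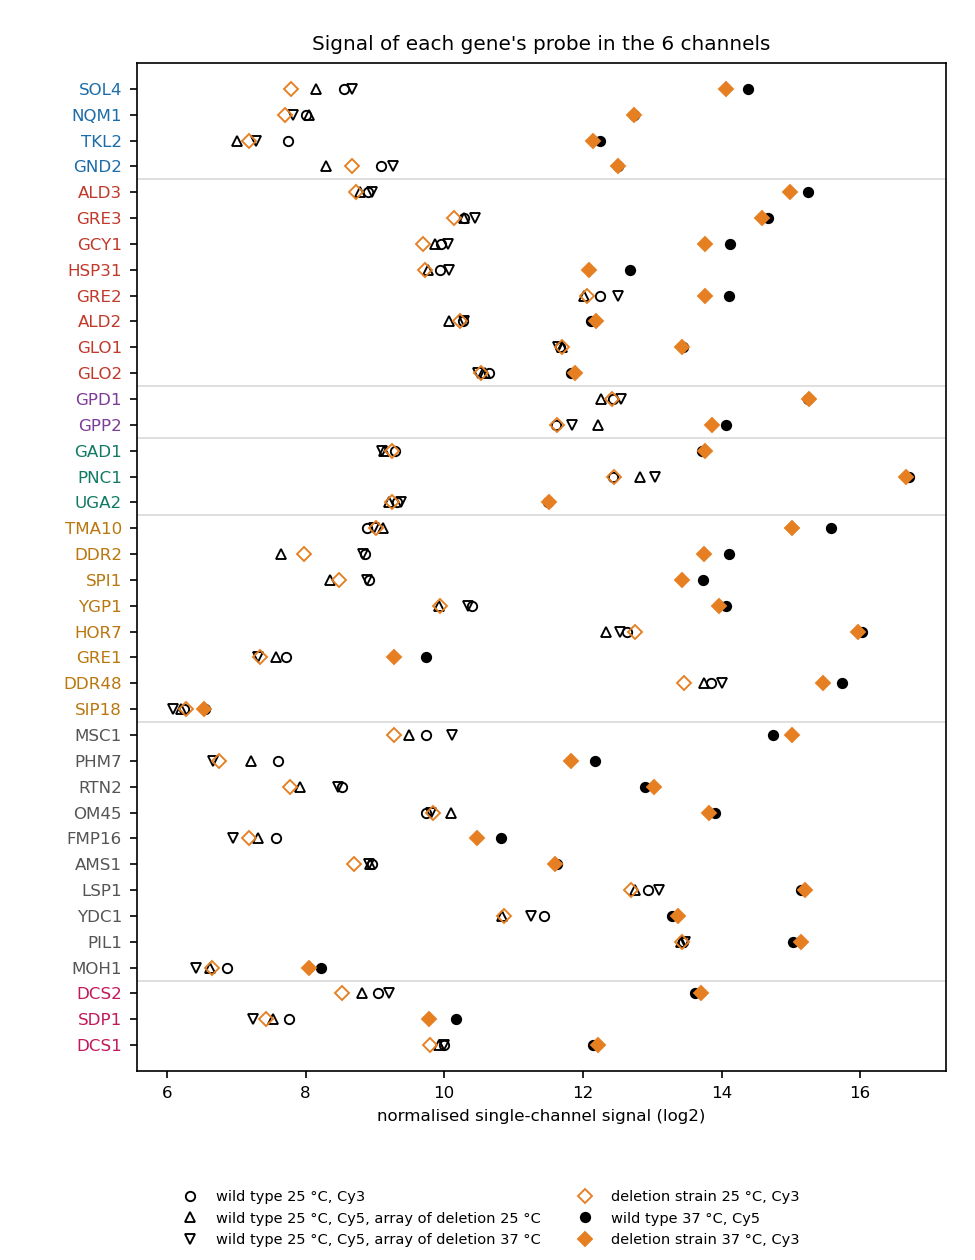
Normalised single-channel signal (x axis, log2) of each gene's probe (y axis) in all 6 channels, with open black symbols for the 3 readings of wild-type RNA from 25 °C, open diamonds for the deletion strain at 25 °C, and filled symbols for both heated samples. Positions are to be compared within a row, since probes differ in brightness; in each row the filled symbols lie to the right of the open ones, and for SIP18 all 6 lie between 6.09 and 6.54.

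Close relatives of these genes responded unevenly: of 17 outside the group 6 rose, 4 fell and 7 stayed below the size rule in the wild type, where 11.6% of all genes rose and 16.4% fell. In the pentose phosphate pathway SOL4 was at 5.83 and its relative SOL3 at 0.46, GND2 at 3.42 and GND1 at 0.14, NQM1 at 4.72 and TAL1 at 0.10, and TKL2 at 4.49 while TKL1 fell to -1.23. The deletion strain gave the same separation, with SOL3 at 0.12, GND1 at 0.02, TAL1 at 0.02 and TKL1 at -1.30. Of the 7 genes of the main pathway none rose and 3 fell in the wild type, namely RKI1 at -4.23, TKL1 and RPE1 at -1.12, and the median was 0.10, beside the same shares of all genes. ZWF1, the gene of glucose-6-phosphate dehydrogenase, which catalyses the first step, was at 1.00, just short of the rule.

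In glycerol synthesis GPD1 at 2.81 stood beside GPD2 at 0.14, and GPP2 at 2.46 beside GPP1 at -0.85. Of 8 further glycerol genes 2 rose, GUT2, the mitochondrial glycerol-3-phosphate dehydrogenase, at 1.97 and DAK1, a dihydroxyacetone kinase, at 1.84. GCY1 at 4.17 stood beside YPR1 at 0.82, HSP31 at 2.74 beside SNO4 at 0.77, RTN2 at 4.37 beside RTN1 at -1.002, and SDP1 at 2.42 beside MSG5 at -1.17. Other pairs rose together: DDR2 and HOR7, DCS2 and DCS1, PIL1 and LSP1, TMA10 with STF2 at 3.66, SPI1 with SED1 at 1.95, YDC1 with YPC1 at 2.12, and GLO2 with GLO4 at 1.12. Among the aldehyde dehydrogenases the mitochondrial ALD4 rose by 4.71 and the cytosolic ALD6 by 1.48 on the log2 scale, while ALD5 fell to -2.77. Of 8 further aldehyde and aldo-keto enzymes 6 rose and 1, ALD5, fell. Over all genes 11.6% rose and 16.4% fell. The probes of each pair differ, so the levels of 2 relatives cannot be set against each other, only their responses.

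**Figure D3:**
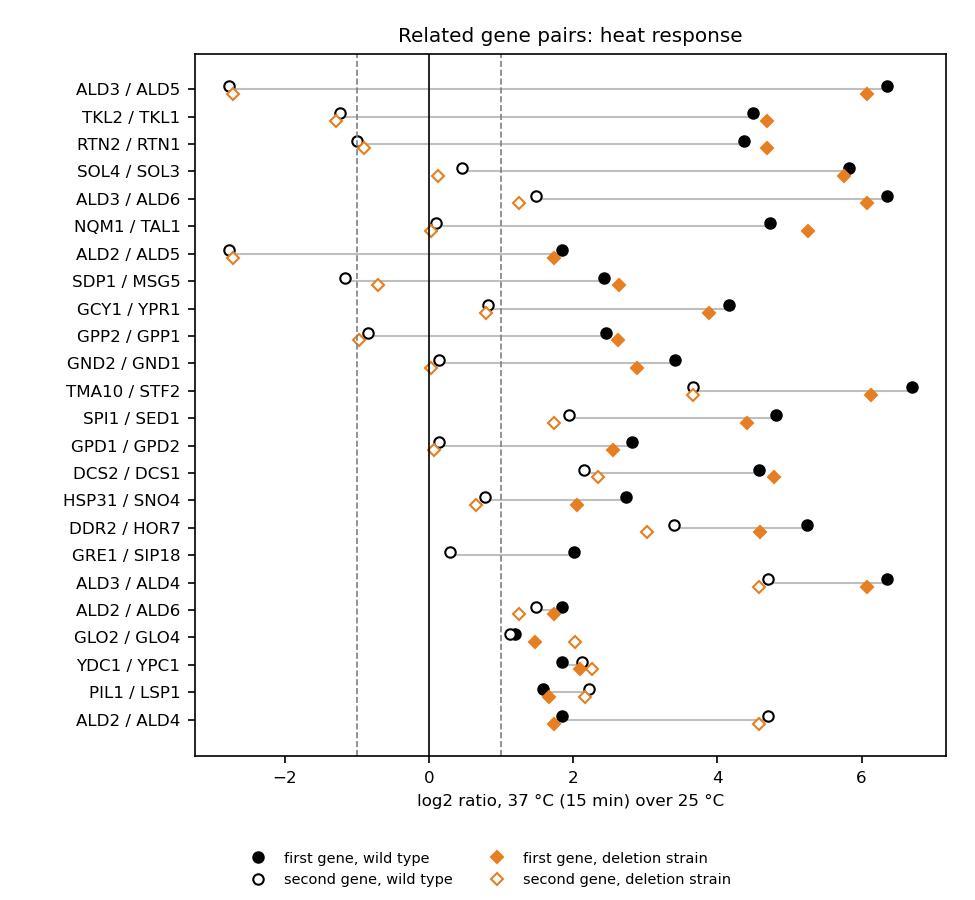
Log2 ratio of 37 °C over 25 °C (x axis) for pairs of related genes (y axis), ordered by the gap in the wild type, with filled symbols for the first gene named and open symbols for the second, circles for the wild type and diamonds for the deletion strain. Open symbols of SOL3, GND1, TAL1 and GPD2 lie near 0 and those of TKL1, RTN1, MSG5, GPP1 and ALD5 below it, and in each of these rows the filled symbols lie at 1.85 or more in the wild type.

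Among other genes of the surrounding pathways the response was uneven. Over all genes 11.6% rose and 16.4% fell in the wild type, and 11.5% rose in the deletion strain. These lists too were chosen with earlier results of these data known. All 22 further stress genes outside the group rose in both strains, with medians of 3.73 and 3.65. They were led by the membrane-stabilising protein gene HSP12 at 6.71 and 7.73. HSP12 was dim at 25 °C, and the order of its 2 responses depends on which 25 °C reading is used. Wild-type RNA from 25 °C read 7.02 and 6.32 in Cy5 and 7.53 in Cy3 on the normalised log2 scale. The unheated deletion strain read 7.05 in Cy3, the heated one 14.1, and the heated wild type 14.2 in Cy5. Of 13 genes of stress regulators 4 rose in the wild type: the transcription factor genes USV1 at 3.23, GIS1 at 1.51 and XBP1 at 1.27, and the kinase gene YAK1 at 1.85. In the deletion strain 4 rose as well, with MSN4 at 1.20 in place of XBP1. By ratios MSN4 was at 0.91 in wild-type cells and XBP1 at 0.81 in the deletion strain. This exchange depends on which 25 °C reading is used. On the normalised log2 scale XBP1 in wild-type RNA from 25 °C read 7.73 and 9.91 in Cy5 on the 2 deletion arrays. In Cy3 XBP1 read 7.85 in the unheated and 10.8 in the heated deletion strain, and MSN4 read 8.98 and 9.79. MSN2 was at 0.28 in wild-type cells and 0.20 in the deletion strain. Of 6 eisosome partners 2 rose, NCE102 at 1.68 and EIS1 at 1.15, and of 6 further GABA and NAD genes 1 rose, the GABA transaminase gene UGA1 at 1.53.

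Most of the nearest measured genes beside the members did not rise by the size rule. Outside the group 12 of 71 neighbours rose in the wild type and 6 fell, with a median of 0.23, so 16.9% of neighbours rose against 11.6% of all genes. Of 17 measured neighbours that share an intergenic region with a member and are read away from it, 6 rose, or 35.3%: DIA3 at 2.07 beside GPD1, VIR1 at 1.04 beside PNC1, COQ6 at 1.07 beside GND2, PAI3 at 1.85 beside SIP18, FMP40 at 2.18 beside GRE1 and ULA1 at 1.25 beside LSP1. PAI3 encodes an inhibitor of a vacuolar protease. These 17 genes are few, and the comparison was chosen after the values were seen.

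At 25 °C the group stood at nearly the same level in both strains. Of 37 measured genes none was higher and none lower in the deletion strain, where 0.0501% and 0.0167% of 5984 genes were. The quartiles of the group were -0.220 and 0.034, against -0.145 and 0.120 over all genes. The median log2 ratio, deletion strain over wild type, was -0.06, with 14 genes above 0 and 23 below, beside a median of -0.02 over all genes. The largest deviations were those of GPP2 at -0.59 ± 0.01, PHM7 at -0.46, HOR7 at 0.41, PNC1 and GND2, at -0.38 and 0.37, SOL4 at -0.36, NQM1 at -0.35 and DDR2 at 0.34 ± 0.01.

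Several of these deviations came and went with the wild-type reading used. In Cy3, the dye of the deletion sample, the normalised log2 signal of GPP2 was 11.6 in both strains at 25 °C and that of PNC1 12.4 in both, with net signals of 1913 in deletion and 1849 in wild-type RNA for GPP2 and of 3617 and 3222 for PNC1. For DDR2 the 3 readings of wild-type RNA were 7.64, 8.83 and 8.86 and the deletion strain stood at 7.98, inside that range. Over the group, 23 of 38 genes (60.5%) had the deletion strain inside the range of the 3 wild-type readings, 13 below (34.2%) and 2 above it (5.26%), beside 59.8% of all genes inside it, 24.2% below and 15.9% above. From channels of the same dye the group's median was -0.24 with 6 of 37 genes above 0, and that of all genes -0.04. Those 3 readings come from 1 RNA group in 2 dyes and span a median of 0.35 for the group and 0.24 for all genes.

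After heat the strains again stood close. Of 38 genes none was higher and none lower in the deletion strain, where 0.187% and 0.407% of 5895 genes were. The quartiles of the group were -0.303 and 0.134, against -0.174 and 0.209 over all genes. The median was -0.06, with 17 genes above 0 and 21 below, and over all genes it was 0.01. The lowest values were those of HSP31 at -0.72, TMA10 at -0.66, PNC1 at -0.66 and GRE2 at -0.61 ± 0.02, and the highest that of PHM7 at 0.58. The 2 arrays carry opposite dyes, so any bias of a dye counts 2 times here, and the direction for the group depends on the scaling: its median was 0.07 without background correction. With median centring in place of loess the group's median was -0.86 and 13 genes counted as lower and 2 as higher, but that setting also shifted the median over all genes, to -0.37.

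In the main values the size of the heat response, deletion strain minus wild type, did not lean one way over the group. It was larger in the deletion strain for 19 of 37 genes and smaller for 18, with a median of 0.04, and the median of all genes was 0.04. Over the alternative settings the group's median ran from -0.71 with median centring, where all genes had -0.34, to 0.14 without background correction. Of 37 genes 0 were above 0 with median centring, 10 in the authors' deposited table, 13 with the scanner's signals and 25 without background correction. By the size rule 1 gene, PHM7, had a higher response in the deletion strain and none a lower one, where 0.375% and 0.153% of 5872 genes did. That count for PHM7 rests on 1 spot that was not well above background in the deletion strain at 25 °C. The PHM7 difference was 1.04, and it was 0.70 in the authors' deposited table, -0.16 with channels of the same dye and -0.61 with median centring.

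By role the differences were unevenly spread in the main values, with most small proteins on one side and most membrane proteins on the other. The role groups were drawn up with earlier results of these data known. Among the hydrophilic, secreted and small proteins 6 of 7 genes had a smaller response in the deletion strain and the median difference was -0.37, with DDR2 at -0.65 ± 0.01, TMA10 at -0.56, SPI1 at -0.41 ± 0.06, HOR7 at -0.37, DDR48 at -0.14 ± 0.02, YGP1 at -0.07 and GRE1 at 0.16. Over all genes 56.1% of differences were above 0 and 43.9% below. Among the membrane, mitochondrial and vacuolar proteins 9 of 10 had a larger one, with a median of 0.24, and after PHM7 the largest were FMP16 at 0.39 ± 0.01 and RTN2 at 0.32. For the membrane group the median was 0.02 both from the scanner's own signals and in the authors' deposited table, with 5 of 10 genes above 0 in each. With median centring it was -0.63, with 0 of 10 above 0. The median of the small proteins was below 0 in each of the 9 alternative settings. It ran from -1.14 with median centring to -0.17 with the same dye and -0.07 without background correction. Those settings use the same 3 arrays and are no substitute for replicates.

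Coding length was also set beside this difference. Over all genes Spearman's rho between coding length and the difference of responses was 0.25, and over the 37 members it was 0.22. From channels of the same dye these values were 0.09 and 0.37, and with median centring 0.08 and 0.14; genes on an array share RNA, labelling and normalisation, so this is a description. The 7 measured members under 600 nt had a median difference of -0.37 and the 30 longer ones 0.06. Of the small-protein group HOR7, at 180 nt, and DDR2, at 186 nt, are the shortest, and TMA10 has 261 nt. The part of coding length in the difference by role was not tested.

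The aldehyde group held further members with a smaller response in the deletion strain. There 6 of 8 differences were below 0, led by HSP31 at -0.68 and GRE2 at -0.66 ± 0.02, and GLO2 was the highest at 0.28 ± 0.07. All 3 regulators had a larger response in the deletion strain, at 0.19 ± 0.02 for DCS1, 0.21 ± 0.30 for SDP1 and 0.22 ± 0.13 for DCS2, of which that of SDP1 was smaller than the spread between its spots. The pentose phosphate enzymes were split, with NQM1 at 0.54, TKL2 at 0.20 ± 0.05, SOL4 at -0.08 and GND2 at -0.54. A difference below 0 in the main values and in all 9 alternatives was seen for 8 genes, DDR2, HOR7, GPD1, GRE2, GCY1, SPI1, TMA10 and HSP31. No gene could be above 0 in all of them, since median centring left 0 of 37 genes above 0. That setting put the median of all genes at -0.34. Leaving out median centring, 8 genes were above 0 throughout, namely GPP2, OM45, GLO2, AMS1, DCS1, DCS2, NQM1 and YDC1, and the same 8 as before were below it. How many of all genes kept their sign in this way was not counted.

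**Figure D4:**
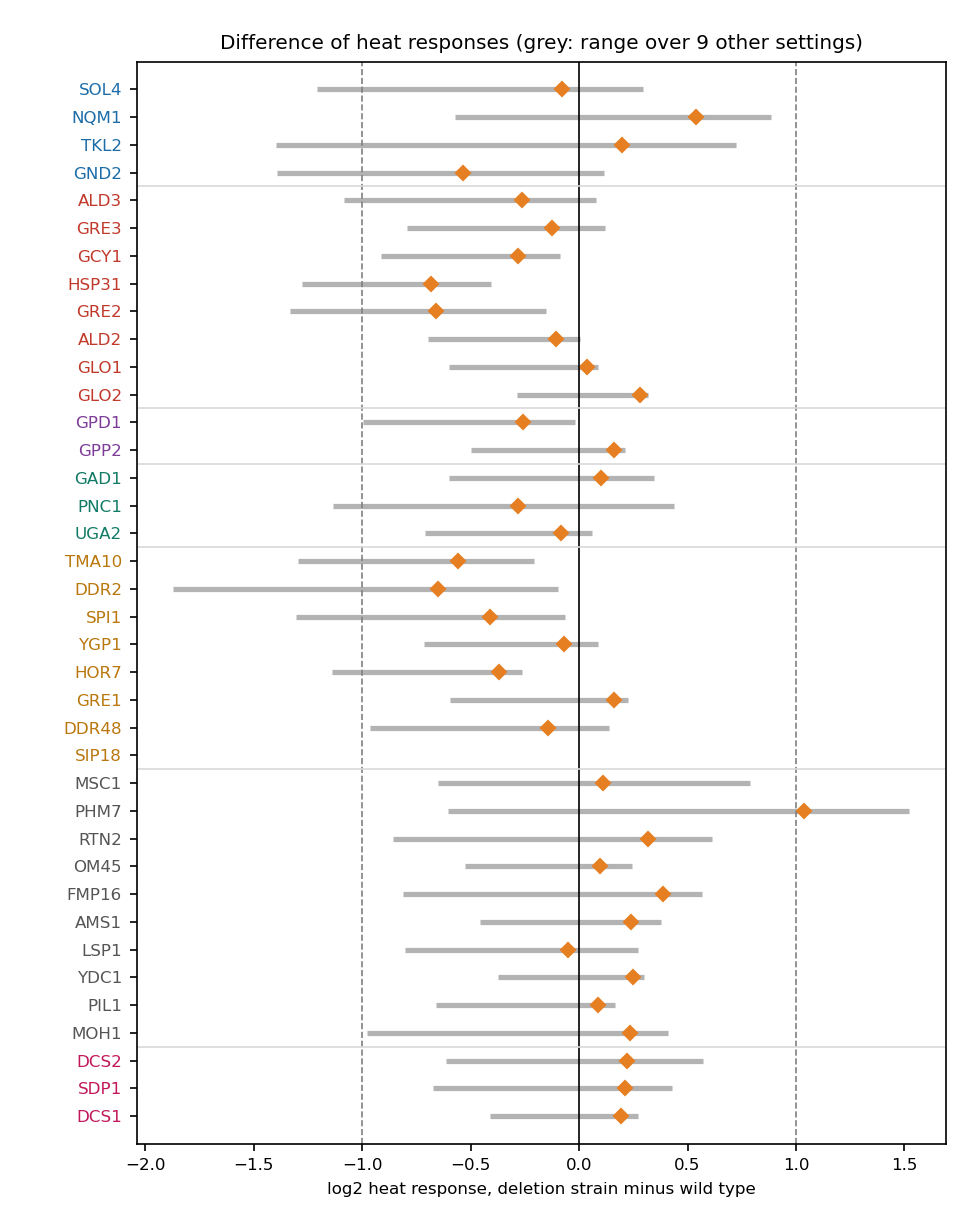
Log2 heat response of the deletion strain minus that of the wild type (x axis) for the 37 genes measured in both strains (y axis, by role), with diamonds for the main values and grey bars for the range over the 9 alternative settings. Main values lie between -0.68 (HSP31) and 1.04 (PHM7), and the bars of most genes cross 0, while those of HSP31, GRE2, GCY1, GPD1, TMA10, DDR2, SPI1 and HOR7 lie below it.

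The reference channel showed how far single differences of this size can be read. Both deletion arrays carried wild-type RNA from 25 °C in Cy5, so the 2 readings of a gene differ in neither strain nor temperature. Among 5918 genes 2.87% differed by 0.5 or more between these readings, against 7 of 38 members, or 18.4%. DDR2 differed most, at 1.19, followed by GND2 at 0.96, MSC1 at 0.62, RTN2 at 0.56, SPI1 at 0.55 and SOL4 at 0.52, all brighter on the array of the heated deletion strain, and PHM7 was dimmer there, at -0.54. The group's median was 0.18 and that of all genes 0.00, with 24 of 38 genes above 0. Wild-type RNA from 25 °C was also read in Cy3, on the array of the heated wild type. That Cy3 reading lay nearer the heated deletion array for DDR2, GND2, RTN2, SPI1 and SOL4. For SPI1 the normalised log2 readings were 8.35 (unheated deletion array), 8.89 (heated) and 8.92 (Cy3), and for GND2 8.30, 9.26 and 9.09. For MSC1, at 9.49, 10.1 and 9.74, and PHM7, at 7.21, 6.67 and 7.61, the Cy3 reading lay nearer the unheated array. Which array departed was not tested.

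Ratios of the heated deletion strain are taken over the reading on its own array. For DDR2 the deletion-strain response was 4.59 by ratios and 5.77 from the Cy3 channels alone, against 5.24 and 5.87 in the wild type. For MSC1 the same 2 values were 5.11 and 5.73 in the deletion strain, for SPI1 4.41 and 4.95, for RTN2 4.69 and 5.25, and for SOL4 5.75 and 6.27. In the wild type the same-dye response sets the heated Cy5 channel against the mean of both Cy5 readings from 25 °C. For DDR2 these 2 readings were 7.64 and 8.83. The group's median response was 3.69 in wild-type cells and 3.28 in the deletion strain from channels of the same dye, and all 37 genes still rose in the deletion strain. The cause of the shift in the reference was not tested. Nothing in the labels says whether both deletion arrays received aliquots of 1 wild-type RNA, so separate cultures of the reference cannot be told apart from a difference between arrays.

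**Figure D5:**
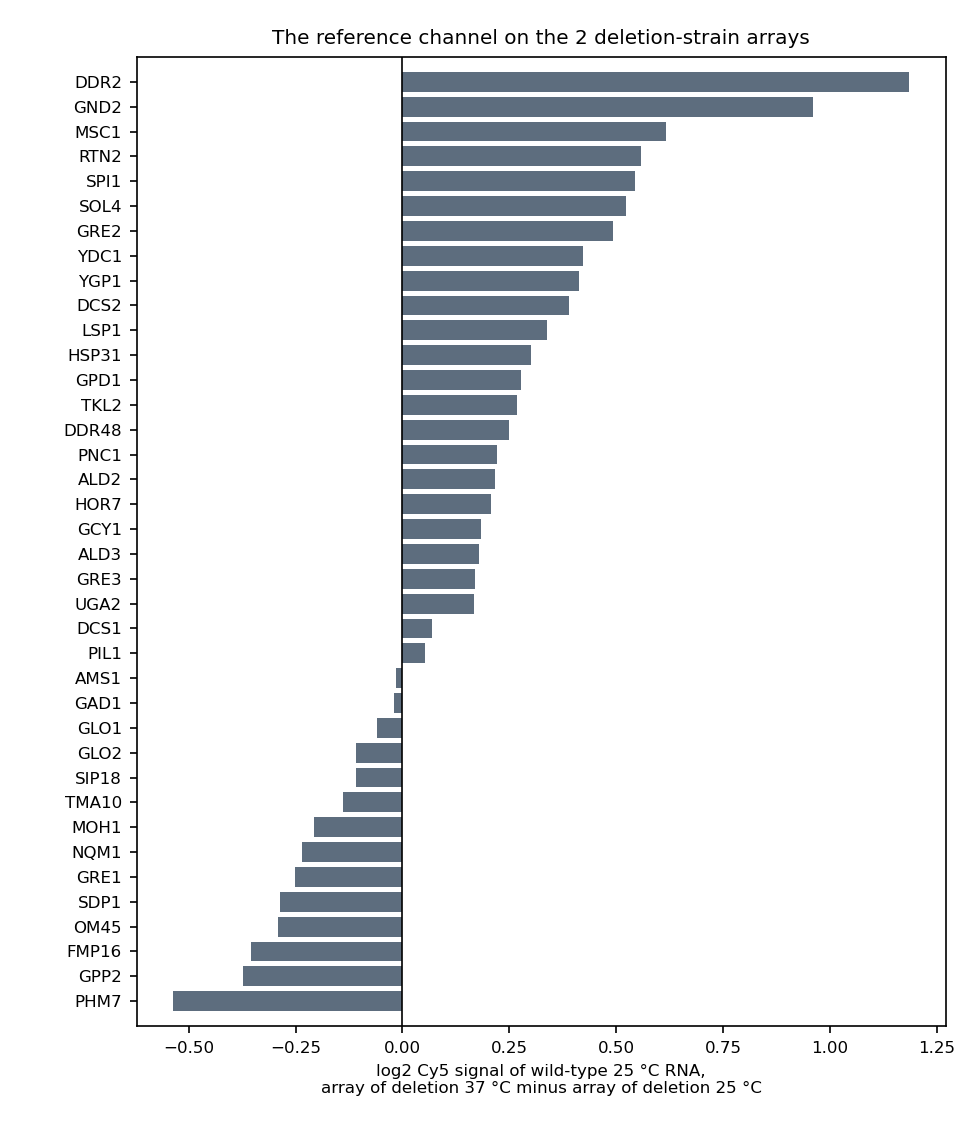
Difference of the normalised log2 Cy5 signal of wild-type RNA from 25 °C (x axis) between the array of heated and the array of unheated deletion cells, as a bar for each of the 38 genes (y axis) in order of size. Bars reach from -0.54 (PHM7) to 1.19 (DDR2), and 24 lie to the right of 0.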

How the data were processed

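Messenger RNA was measured on 3 two-colour Agilent arrays, 1 per test group. Spot intensity in the deposited scanner files is mean brightness per channel, made with Agilent Feature Extraction 9.1.1.1 per the file headers; per the file headers, the same software also subtracted background and normalised the dyes to give a processed intensity and its log10 ratio. The authors' deposited table holds log2 ratios; the submitters' processing notes name limma without its steps. Its columns, turned to sample over wild type, correlated at 0.867 (deletion strain at 25 °C), 0.977 (37 °C) and 0.983 (wild type) with the main log2 ratios, and had medians of -0.02, -0.05 and -0.01; whether it was centred stays unknown.

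Here, normexp background correction used an offset of 50, which draws ratios of dim spots towards 0. Ratios were loess-normalised within each array and expressed as sample over unheated wild type (limma 3.58.1, R 4.3.3), with control and flagged spots at weight 0. Spots entered a comparison if unflagged and if 1 or both channels of every array in it were well above background, and spots of a gene were averaged. Net signals are mean brightness minus the software's background. Single channels were computed after loess and Aquantile. Bounds set the bright channel against the higher of the dim probe's own signal and the lowest signal well above background. They hold for the main processing alone.

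The comparisons were both heat responses (for the deletion strain, its array at 37 °C minus that at 25 °C), the deletion at 25 °C and at 37 °C, and the difference of responses. With 1 array per group there is no test; the number of arrays limits the precision. Alternatives were no background correction, no offset, median centring, the scanner's processed signals, the deposited table, no filter and a strict filter on dim spots, the brightest spot, and channels of the same dye across arrays. The members, their groups by role, the related pairs and the pathway lists were chosen with earlier results of these data known; every member is named. The calculations were tested on simulated arrays.

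Symbols came from the R64 gene table through the systematic name, with 5756 of 6256 genes matched, and its gene order gave the neighbours. The sources used here do not name the build of the probes, and coordinates are left out; probe, promoter and protein sequences were not used here, and the planned search of promoters for motifs was not run.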

Additional observations from a re-analysis of the deposited data

How the results depend on the processing

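No paired analysis was possible because a group holds a single array, number 1, so no spread remains. Over the 9 alternatives 36 to 38 members rose in the wild type and 35 to 37 in the deletion strain. The wild-type median was 2.88 without background correction, 3.58 without an offset, 3.56 with median centring, 3.81 with the scanner's signals, 3.46 in the deposited table, 3.40 with the strict filter and 3.69 with the same dye. In the deletion strain it was 3.12 without an offset, 2.62 with median centring, 3.67 with the scanner's signals, 3.10 in the deposited table and 3.28 with the same dye. For the deletion at 25 °C, median centring gave 2 genes higher, the scanner's signals 1 lower and a median of -0.13, and the same dye a median of -0.24. At 37 °C, median centring gave 2 higher, 13 lower and a median of -0.86 (all genes -0.37); the scanner's signals gave 1 lower and -0.26, the same dye 1 lower and -0.24, the deposited table -0.23, and no background correction 0.067. For the difference of responses, 0 genes were higher in the deposited table, with median centring, with the same dye and with the strict filter; 11 were lower with median centring, 1 in the deposited table and 1 with the scanner's signals. Its median was 0.14 without background correction, -0.082 without an offset, -0.71 with median centring (all genes -0.34), -0.14 in the deposited table and -0.11 with the scanner's signals. The PHM7 difference reversed, to -0.61 with median centring and -0.16 with the same dye. The causes were not tested, except that the strict filter leaves out PHM7 by construction. Median centring also moved the median of all genes to -0.19 in the deletion strain's heat response, and the scanner's signals moved it to 0.12 in the wild type's. Of values for single genes and pairs, 1428 kept their call or moved within the spread between spots (0.1 for single spots), and 625 moved further. Another 32 passed the size rule anew, 5 no longer passed it and 2 reversed. Changes of sign in values below the size rule were far more common. For the deletion at 25 °C, 1 of 14 members above 0 and 10 of 23 below 0 kept their sign in all settings. For the difference of responses 0 of 19 and 8 of 18 did, and 8 of 19 and 8 of 18 without median centring. Signal over background limits SIP18, PHM7 and MOH1.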
